A study of Mus musculus with 23 samples.

Results

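Transforming growth factor β (TGF-β) and bone morphogenetic protein (BMP) signalling was followed through 10 genes, each measured by 1 probe on the array: 5 ligands (Bmp4, Bmp2, Bmp6, Tgfb1 and Tgfb2), 3 receptors (Tgfbr2, Acvrl1 and Eng) and the inhibitory SMADs Smad6 and Smad7. They were chosen by name, out of 20145 genes with a probe, and where a gene had several probes the one with the highest mean intensity was taken. All 10 were among the 15202 genes bright enough to be tested. The cells came from 1 mouse embryonic stem (ES) cell line that carries an HA-tagged human RUNX1-ETO gene under doxycycline (Dox) control in a RUNX1 wild-type background, labelled C57BL/6. RUNX1-ETO is the fusion protein made by the t(8;21) translocation of acute myeloid leukaemia. Cells were differentiated in vitro and sorted as haemogenic endothelium (HE; KIT+Tie2+CD41-), HE2 (KIT+Tie2+CD41+) and progenitors (KIT+Tie2-CD41+), without Dox or with Dox (0.1 μg per ml) added from day 1 of blast culture. Myeloid progenitors were floating progenitors put into expansion medium with stem cell factor, Flt3 ligand and thrombopoietin, without Dox or with Dox for 12 h. There were 3 arrays per group, except 2 of uninduced and 2 of induced progenitors. The labels of induced myeloid progenitor array 3 call it a biological replicate in one field and a technical one in another, and a further uninduced progenitor array, titled a technical replicate, was kept out of the groups. Cells without the transgene that received Dox were not analysed here, so an effect of Dox itself cannot be told apart from that of RUNX1-ETO.

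In this pathway a ligand dimer brings type I and type II receptor kinases together, and the type I receptor phosphorylates SMAD proteins that carry the signal to the nucleus. BMP4 is required for blood-forming mesoderm. ALK1 (the product of Acvrl1) and its co-receptor endoglin (Eng) are receptors of this pathway on endothelial cells, and SMAD6 and SMAD7 are feedback inhibitors that the pathway itself switches on. The arrays lay on 3 slides scanned on 2 days, with HE and HE2 on slides 1 and 2 and all myeloid progenitors on slide 3. Of the progenitors, the fitted uninduced arrays lay on slides 1 and 2 and the induced ones on slides 1 and 3. Slide 3 was scanned on another day than slides 1 and 2, so Dox, slide and scan day are partly mixed in progenitors. Between 48.8% and 78.4% of the spots of an array were well above background and no spot was saturated. This share was 48.8% to 65.6% on induced progenitor arrays and 67.5% to 71.0% on the fitted uninduced ones, so it also differed with Dox there. Runx1t1, the mouse gene for the ETO part of the fusion, was higher on every induced than on every uninduced array at each stage, by 1.24 (HE), 2.08 (HE2), 3.96 (progenitors) and 2.06 (myeloid progenitors) on the log2 scale, although whether its probe reads the human transgene is not given in the sources used here. The Runx1t1 difference in HE did not pass the call defined below, while those at the other stages did. The cells of each sample were measured together, so more cells of a type and more RNA per cell cannot be told apart.

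With Dox, between 0 and 3 of the 10 genes were called at a stage. A gene was called changed at P of 0.001 or less in limma and a change of at least 2-fold, with P adjusted over all genes tested given beside each call. In HE, 1 of the 10 genes was called, the lower ligand Bmp2 (7.09% of all genes were called there). In HE2, 2 of 10 were called, the receptors Tgfbr2 and Acvrl1, both higher (7.22% of all genes). In progenitors none was called (3.73% of all genes), with 4 of 10 at an unadjusted P under 0.05 (Acvrl1, Bmp6, Smad6 and Smad7). Over the fitted progenitor arrays these 4 differed by 1.13, 1.27, 1.14 and 1.34 on the log2 scale. Within slide 1, which held 1 array of each progenitor group, they differed by 1.32, 1.53, 1.55 and 0.77. In myeloid progenitors 3 of 10 were called, Bmp4, Acvrl1 and Eng, all higher (6.31% of all genes). The median log2 change of the 10 genes was 0.29 (HE), 0.35 (HE2), 0.72 (progenitors) and 0.96 (myeloid progenitors), against -0.01, -0.03, -0.04 and -0.02 over all genes. Uninduced and induced arrays did not overlap for 3 of the 10 genes in HE (25.1% of all genes), 4 in HE2 (32.3%), 7 in progenitors (49.0%) and 8 of the 10 in myeloid progenitors (46.6%).

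**Figure D1:**
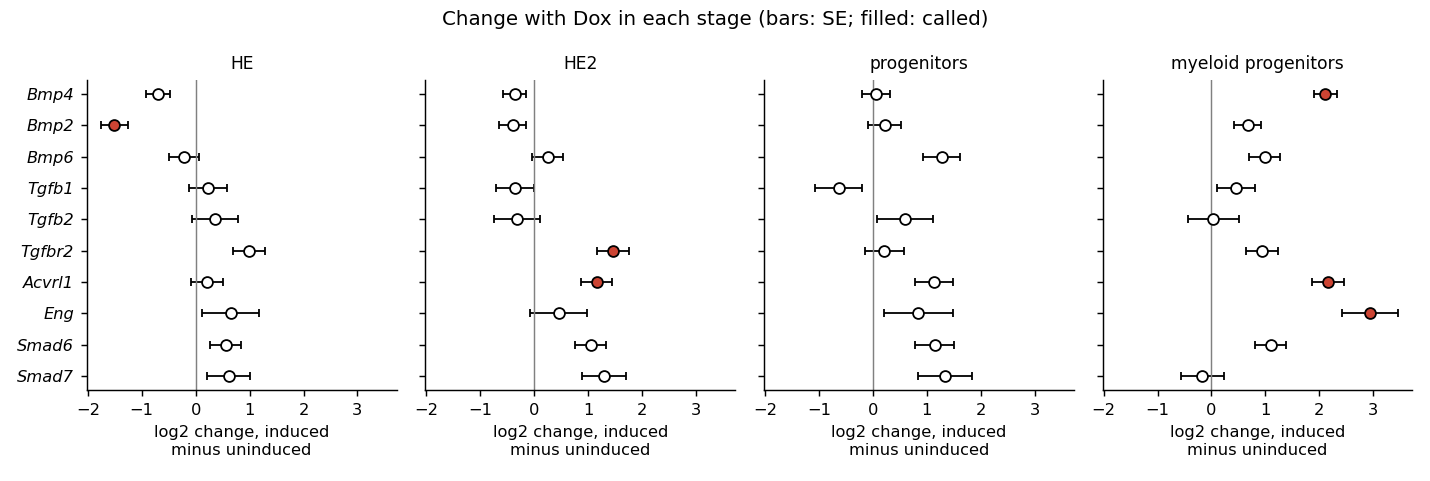
Log2 change with Dox (x axis, induced minus uninduced) of the 10 genes (y axis) in each stage. Points are estimates from limma, bars are 1 standard error, and filled points passed the call, which only Bmp2 did on the lower side, in HE (-1.51), while Acvrl1 was filled in HE2 and in myeloid progenitors.

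The sequence upstream of the start is shown for 4 genes that the results below turn on and that have a promoter entry. The entries are from RefSeq (GRCm38.p6) and were looked up by symbol, with a chromosome left out of the search. This gave a window for 7 of the 10 genes and none for Bmp2, Acvrl1 and Smad7. Each run is the 250 bases before the gene's start, read 5′ to 3′ on the gene's own strand, with matches to the SMAD letters CAGAC (either strand) in capitals.
Bmp4 (chr14:46390670-46390919, - strand): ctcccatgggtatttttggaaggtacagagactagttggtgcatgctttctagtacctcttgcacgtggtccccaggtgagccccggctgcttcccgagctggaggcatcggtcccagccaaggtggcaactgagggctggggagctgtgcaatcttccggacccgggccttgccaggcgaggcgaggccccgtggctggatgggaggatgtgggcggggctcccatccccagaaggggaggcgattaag
Bmp6 (chr13:38345466-38345715, + strand): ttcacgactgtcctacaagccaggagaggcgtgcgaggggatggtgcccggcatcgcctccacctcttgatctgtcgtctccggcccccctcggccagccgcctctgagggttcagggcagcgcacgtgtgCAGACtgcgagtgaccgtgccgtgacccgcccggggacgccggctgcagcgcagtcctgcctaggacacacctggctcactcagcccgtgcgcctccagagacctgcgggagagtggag
Tgfbr2 (chr9:116175364-116175613, - strand): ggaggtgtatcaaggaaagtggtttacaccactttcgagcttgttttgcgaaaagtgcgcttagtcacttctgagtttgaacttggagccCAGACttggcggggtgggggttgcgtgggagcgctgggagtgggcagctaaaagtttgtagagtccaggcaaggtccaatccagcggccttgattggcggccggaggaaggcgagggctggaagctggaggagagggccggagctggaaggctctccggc
Eng (chr2:32646345-32646594, + strand): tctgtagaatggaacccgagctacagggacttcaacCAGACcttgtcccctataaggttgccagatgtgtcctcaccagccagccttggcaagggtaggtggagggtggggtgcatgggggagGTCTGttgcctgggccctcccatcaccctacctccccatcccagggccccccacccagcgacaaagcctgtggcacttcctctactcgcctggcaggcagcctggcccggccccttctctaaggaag
CAGAC was found in 4 of the 7 windows (Bmp6, Eng, Tgfb2 and Tgfbr2), with 2 matches each in Eng and Tgfb2, and in 42.2% of all 32851 windows of this length. The Eng matches began 214 and 127 bases before the start, the Bmp6 match 119 bases and the Tgfbr2 match 160 bases before it. The RUNX letters TGTGGT (in 14.0% of all windows) and TGCGGT (5.10%), the BMP-type SMAD letters GGCGCC (9.59%) and the GATA letters AGATAA (9.99%) were in none of the 7 windows. These are matches of letters, and no binding was measured on them here.

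Bmp4, the BMP ligand that patterns mesoderm towards blood, was high in HE, HE2 and progenitors and dropped in myeloid progenitors. In uninduced cells its log2 intensity was 12.99, 13.05 and 12.52 in HE, 13.42, 13.33 and 12.81 in HE2, and 12.28 and 12.19 in progenitors, then 8.73, 9.05 and 9.16 in myeloid progenitors. Induced cells gave 12.20, 12.38 and 11.89 in HE, 12.75, 12.94 and 12.77 in HE2, 12.58 and 12.01 in progenitors, and 11.35, 11.10 and 10.82 in myeloid progenitors. The 3 induced myeloid progenitor arrays thus all lay above the uninduced ones and below every array of the earlier stages. There Bmp4 was 4.31-fold higher with Dox (log2 change 2.11, SE 0.22, adjusted P = 2.51e-06). A second Bmp4 probe was not well above background on any array, and averaging both probes gave a log2 change of 1.04. In HE the induced arrays were all lower than the uninduced ones, by 0.70 on the log2 scale (adjusted P = 0.0345), which is under 2-fold and was not called. The fall of Bmp4 from progenitors to myeloid progenitors was called without Dox (log2 change -3.25, SE 0.24, adjusted P = 3.21e-08) and with Dox (log2 change -1.21, SE 0.24, adjusted P = 0.00194). Myeloid progenitors and fitted uninduced progenitors shared no slide, but the additional array of uninduced progenitors, on the slide of the myeloid progenitors, read 12.06. With slide as a block the fall was -2.80 (adjusted P = 0.000663) without Dox and -0.92 with Dox, where it was no longer called (adjusted P = 0.0439). In all fits with slide as a block, only induced progenitor array 2 linked slide 3 to the other slides. These fits also assume the same slide shift in every group, so they adjust steps into myeloid progenitors only weakly.

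Bmp2, the close relative of Bmp4, was the 1 ligand called with Dox in HE, where it fell. It read 12.73, 13.50 and 13.26 on the uninduced HE arrays and 11.20, 11.97 and 11.79 on the induced ones, with no overlap. The difference was 2.85-fold (log2 change -1.51, SE 0.25, adjusted P = 0.000308), -1.91 within slide 1, -1.38 within slide 2 and -1.61 with slide as a block. The mean log2 intensity of 6 cardiac and smooth muscle genes was also lower in induced HE, at 10.30 to 10.73 against 11.36 to 12.17. So were those of 6 epithelial and endodermal genes, at 7.01 to 7.41 against 7.83 to 8.10, and of 6 haematopoietic genes, at 7.69 to 7.95 against 8.31 to 8.66. Of the 6 epithelial and endodermal genes, 3 were bright enough to be tested, and 2 to 5 were well above background on induced HE arrays. Of the 6 haematopoietic genes, 2 were higher with Dox, and their median log2 change was -0.22. The mean of 4 primitive erythroid genes was higher in induced HE, at 8.97 to 9.51 against 8.55 to 8.65. Only 2 of these 4 were higher, 1 of them was called, and their median log2 change was 0.02. The part of these lists in the fall of Bmp2 was not tested. In HE2 the groups overlapped, at 12.08, 12.67 and 12.24 without Dox and 11.44, 12.08 and 12.28 with Dox (log2 change -0.40, adjusted P = 0.310). Progenitors had the lowest Bmp2 values, 10.02 and 10.05 without Dox and 10.33 and 10.18 with Dox. Myeloid progenitors read 10.81, 11.26 and 10.98 without Dox and 11.55, 11.72 and 11.77 with it, so that the induced arrays all lay higher but within 2-fold (log2 change 0.67, adjusted P = 0.0855). Between stages, Bmp2 fell from HE2 to progenitors without Dox (log2 change -2.30, adjusted P = 2.38e-05) and with Dox (-1.68, adjusted P = 0.000442), where the call was lost with slide as a block (-1.40, adjusted P = 0.0209) and without slide 3 (-1.60, adjusted P = 0.0349). It rose from progenitors to myeloid progenitors with Dox (1.43, adjusted P = 0.00152), and 1.51 within slide 3. Without Dox that step was 0.98 and was not called (adjusted P = 0.0115).

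**Figure D2:**
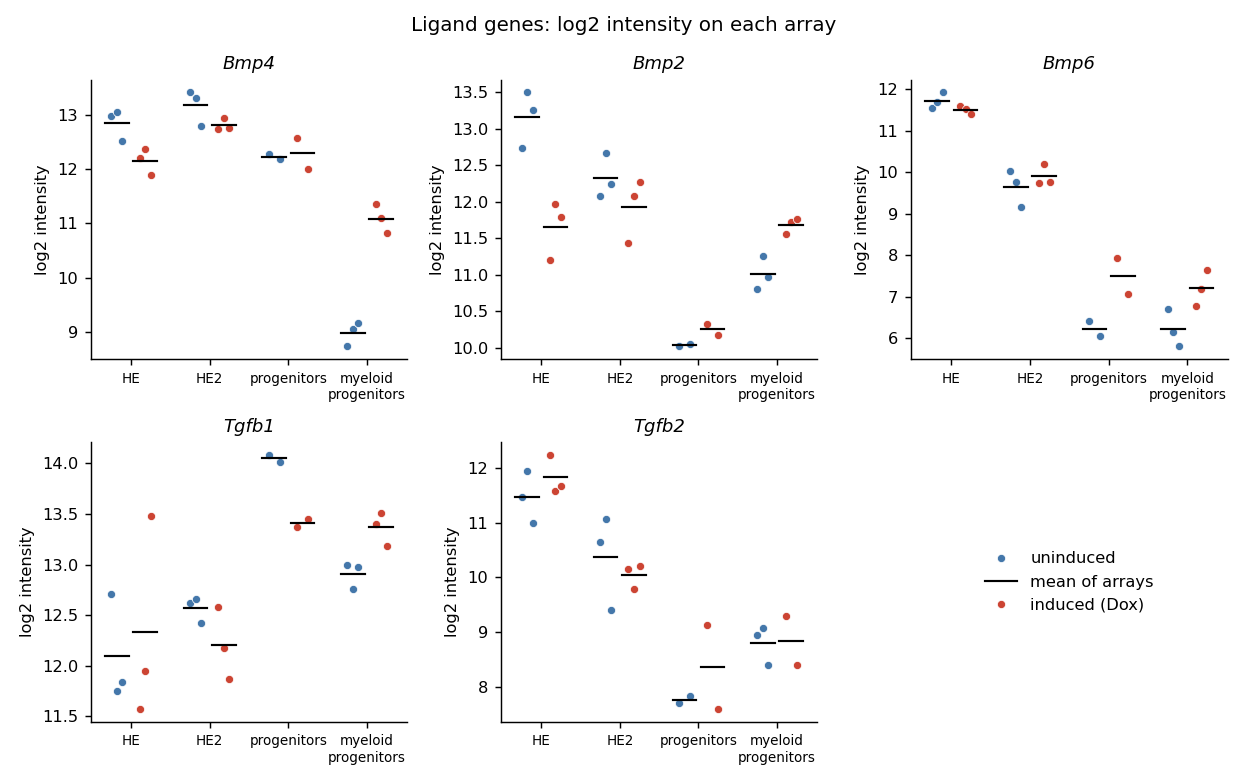
Log2 intensity (y axis) of the 5 ligand genes on each array of the 4 stages (x axis), uninduced in blue and induced in red, with black lines at the means. Bmp6 falls stepwise from HE to progenitors, and the 3 induced myeloid progenitor arrays for Bmp4 lie between 10.82 and 11.35, above the uninduced 8.73 to 9.16.

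Bmp6, another BMP ligand, spanned the widest range of the 10 genes (5.50 between the highest and lowest group mean on the log2 scale) and followed stage more than Dox. Uninduced arrays read 11.55, 11.69 and 11.93 in HE, 10.03, 9.77 and 9.18 in HE2, and 6.41 and 6.05 in progenitors. Induced arrays read 11.61, 11.52 and 11.40 in HE, 9.74, 10.21 and 9.78 in HE2, and 7.95 and 7.06 in progenitors. No array of one of these stages overlapped an array of the next, with or without Dox. Each step was called: from HE to HE2 the log2 change was -2.06 without Dox (adjusted P = 0.000124) and -1.60 with Dox (adjusted P = 0.00184), and from HE2 to progenitors it was -3.43 without Dox (adjusted P = 1.71e-06) and -2.40 with Dox (adjusted P = 5.72e-05). In myeloid progenitors Bmp6 read 6.70, 6.15 and 5.81 without Dox, the last of them not well above background, and 6.78, 7.19 and 7.64 with Dox. These were close to the progenitor values, and neither step was called (log2 change -0.01, adjusted P = 0.980, without Dox and -0.30, adjusted P = 0.574, with Dox). Induced arrays lay above uninduced ones in progenitors (log2 difference 1.27, adjusted P = 0.0380) and in myeloid progenitors (0.98, adjusted P = 0.0256), and neither difference was called.

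Tgfb1, the TGF-β ligand of blood cells and platelets, went the other way between stages. It read 12.71, 11.75 and 11.84 in uninduced HE, 12.62, 12.66 and 12.43 in uninduced HE2, 14.08 and 14.02 in uninduced progenitors and 13.00, 12.75 and 12.98 in uninduced myeloid progenitors. Induced arrays read 11.57, 11.95 and 13.48 in HE, 12.58, 12.17 and 11.87 in HE2, 13.37 and 13.45 in progenitors, and 13.40, 13.51 and 13.19 in myeloid progenitors. Progenitors lay above HE2 on all arrays, by 1.48 without Dox (adjusted P = 0.0222) and 1.21 with Dox (adjusted P = 0.0477) on the log2 scale, at P values above the call. No Dox effect on Tgfb1 was called. Both induced arrays were lower than the 2 fitted uninduced ones in progenitors (log2 difference -0.64, adjusted P = 0.436), but the additional uninduced array on slide 3 read 12.97, below both induced arrays. Induced arrays were all higher in myeloid progenitors (0.46, adjusted P = 0.487), and in HE, where 1 induced array stood far above the others, the groups overlapped.

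Tgfb2, a TGF-β ligand of endothelial and mesenchymal cells, was highest in HE, with 11.48, 11.95 and 10.99 without Dox and 12.24, 11.59 and 11.67 with Dox. HE2 read 10.64, 11.06 and 9.40 without Dox and 10.16, 9.78 and 10.21 with Dox, and progenitors read 7.70 and 7.83 without Dox and 9.13 and 7.59 with Dox. The fall was called from HE to HE2 with Dox (log2 change -1.78, adjusted P = 0.0177) and from HE2 to progenitors without Dox (-2.60, adjusted P = 0.00137), and a second probe gave -1.28 (adjusted P = 0.0629, not called) for the former and -2.73 (adjusted P = 0.000361) for the latter. Falls from HE to HE2 without Dox (-1.10, adjusted P = 0.114) and from HE2 to progenitors with Dox (-1.69, adjusted P = 0.0218) were past 2-fold but not called. The call from HE to HE2 was lost when any 1 of its 6 arrays was left out. Myeloid progenitors read 8.95, 9.07 and 8.40 without Dox and 9.29 and 8.39 with Dox, where the spot of the remaining array had an outlier flag and was left out. Uninduced and induced arrays overlapped at every stage.

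Tgfbr2, the type II receptor that binds TGF-β, was higher with Dox in HE2. There it read 12.16, 12.54 and 12.43 without Dox and 13.73, 13.64 and 14.11 with Dox, with all induced arrays above all uninduced ones. The difference was 2.74-fold (log2 change 1.45, SE 0.30, adjusted P = 0.00219), 1.38 within slide 1, 1.45 within slide 2 and 1.35 with slide as a block. A second probe gave 0.88 (adjusted P = 0.175, not called), and averaging the 2 probes gave 1.16 (adjusted P = 0.0128) and ended the call. In HE the arrays read 12.61, 13.23 and 13.89 without Dox and 14.13, 13.89 and 14.67 with Dox (log2 difference 0.98, adjusted P = 0.0303), and in myeloid progenitors 11.69, 11.97 and 11.28 without Dox and 12.85, 12.44 and 12.45 with Dox (0.93, adjusted P = 0.0442). Both differences were just short of 2-fold and were not called, and in HE the highest uninduced and lowest induced arrays were at the same level to 2 decimals. Progenitors overlapped, at 12.21 and 12.35 without Dox and 12.93 and 12.06 with Dox. With Dox, Tgfbr2 fell from HE2 to progenitors (log2 change -1.34, adjusted P = 0.0102), but with slide as a block the value was -0.70 (adjusted P = 0.356), and without induced progenitor array 2, the array on slide 3, it was -0.90.

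**Figure D3:**
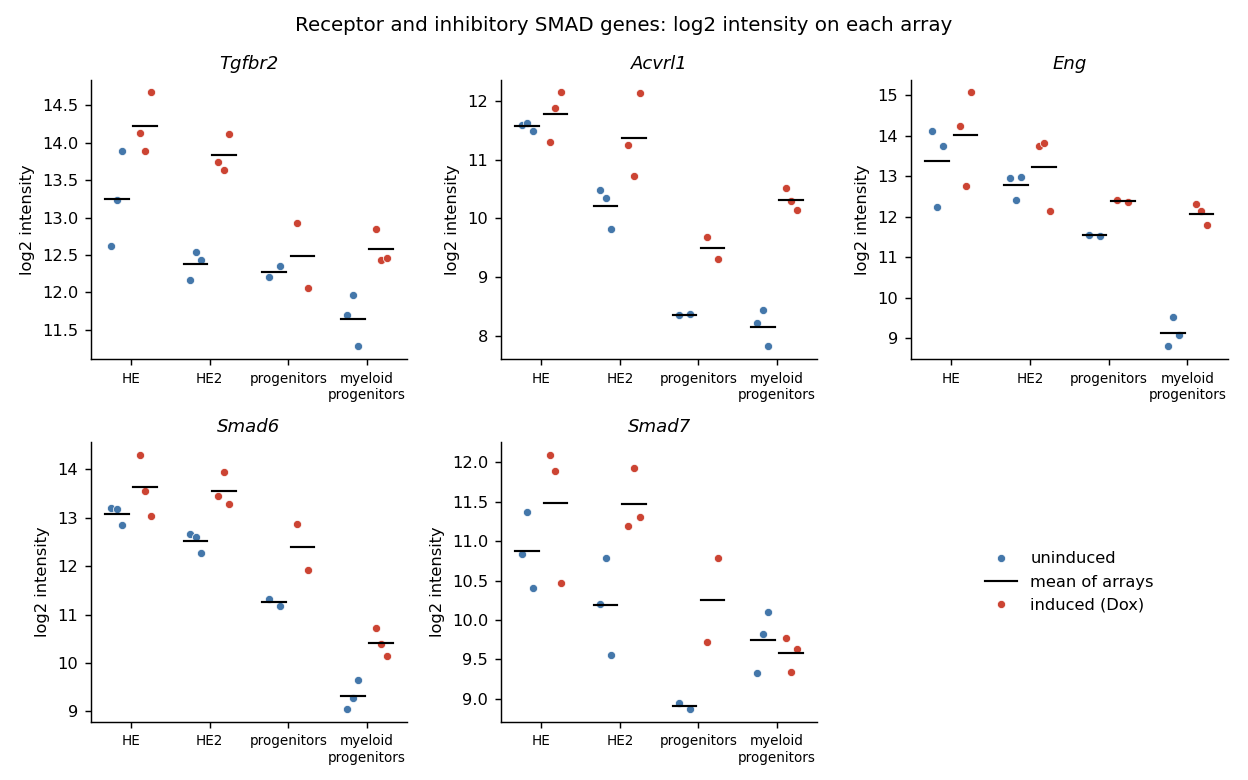
Log2 intensity (y axis) of the 3 receptor and 2 inhibitory SMAD genes on each array of the 4 stages (x axis), uninduced in blue and induced in red, with black lines at the means. In myeloid progenitors the induced arrays of Acvrl1 (10.14 to 10.52) and Eng (11.79 to 12.31) lie above the uninduced ones (7.82 to 8.43 and 8.80 to 9.52), whereas Smad7 overlaps.

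Acvrl1, which encodes the endothelial type I receptor ALK1, fell from HE to progenitors without Dox and lay higher with Dox in all stages but HE. Uninduced arrays read 11.60, 11.62 and 11.49 in HE, 10.48, 10.35 and 9.81 in HE2, 8.36 and 8.37 in progenitors, and 8.21, 8.43 and 7.82 in myeloid progenitors. Induced arrays read 11.30, 11.88 and 12.15 in HE, 11.25, 10.73 and 12.13 in HE2, 9.68 and 9.31 in progenitors, and 10.52, 10.30 and 10.14 in myeloid progenitors. Only in HE did induced and uninduced arrays overlap. The difference with Dox was 4.48-fold in myeloid progenitors (log2 change 2.16, SE 0.29, adjusted P = 4.62e-05), 2.23-fold in HE2 (1.15, SE 0.29, adjusted P = 0.0101) and 2.19-fold in progenitors (1.13, SE 0.36, adjusted P = 0.0749), the last of which was not called. The call in HE2 was near the threshold. It was 0.83 within slide 1, 1.62 within slide 2 and 1.14 with slide as a block, where it was lost (adjusted P = 0.0186), and without induced HE2 array 3, the highest of its group, the log2 change was 0.77. Without Dox, Acvrl1 fell from HE to HE2 (log2 change -1.36, adjusted P = 0.00513) and from HE2 to progenitors (-1.85, adjusted P = 0.000933). With Dox the first step was -0.41 and was not called (adjusted P = 0.517), and the second was called at -1.87 (adjusted P = 0.000672), a call that was lost with slide as a block (-1.66, adjusted P = 0.0326) and without slide 3 (-1.69, adjusted P = 0.0491).

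Eng, which encodes endoglin, the co-receptor of ALK1, had the largest Dox change of the 10 genes. Myeloid progenitors read 8.80, 9.52 and 9.09 without Dox and 12.31, 12.14 and 11.79 with Dox, a gap between the groups of more than 2 log2 units. The change was 7.67-fold (log2 change 2.94, SE 0.53, adjusted P = 0.000735), and since all 6 arrays lay on slide 3 it was made within 1 slide. This call and those of Bmp4 and Acvrl1 in myeloid progenitors were kept without induced array 3. At the earlier stages the arrays scattered widely, at 14.11, 12.25 and 13.76 without Dox against 14.23, 12.76 and 15.07 with Dox in HE, and 12.96, 12.41 and 12.97 against 13.74, 13.81 and 12.14 in HE2. Progenitors read 11.56 and 11.53 without Dox and 12.40 and 12.37 with Dox, a difference of 0.84 that was not called (adjusted P = 0.501). Without Dox, Eng fell from progenitors to myeloid progenitors (log2 change -2.40, SE 0.59, adjusted P = 0.00453). With Dox that step was -0.31 (adjusted P = 0.777). The fall without Dox was -2.39 with slide as a block, where the call was lost (adjusted P = 0.340), and the additional uninduced progenitor array on slide 3 read 11.38.

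Smad6, the inhibitor of BMP-type receptors, was 1.04, 1.14 and 1.10 higher with Dox on the log2 scale in HE2, progenitors and myeloid progenitors, without passing the call. HE2 read 12.67, 12.60 and 12.28 without Dox and 13.45, 13.94 and 13.29 with Dox (adjusted P = 0.0195), progenitors 11.32 and 11.18 against 12.87 and 11.91 (adjusted P = 0.0749), and myeloid progenitors 9.05, 9.28 and 9.64 against 10.72, 10.39 and 10.15 (adjusted P = 0.0169). With slide as a block the call was passed in HE2 (1.16, adjusted P = 0.00461) and in myeloid progenitors (1.10, adjusted P = 0.00606). None of these groups overlapped, whereas those of HE did, at 13.20, 13.17 and 12.85 without Dox and 14.29, 13.55 and 13.04 with Dox. Smad6 fell from progenitors to myeloid progenitors without Dox (log2 change -1.93, adjusted P = 0.000256) and with Dox (-1.97, adjusted P = 0.00039). With slide as a block these were -1.14, no longer called (adjusted P = 0.286), and -1.49 (adjusted P = 0.0116), and the additional uninduced progenitor array on slide 3 read 11.21.

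Smad7, the inhibitor of both arms of the pathway, was not called in any comparison. HE2 read 10.21, 10.78 and 9.56 without Dox and 11.19, 11.93 and 11.31 with Dox (log2 difference 1.29, adjusted P = 0.0343), and progenitors 8.95 and 8.87 against 9.72 and 10.78 (1.34, adjusted P = 0.134). In both the induced arrays were all higher. HE read 10.84, 11.37 and 10.41 without Dox and 12.09, 11.89 and 10.47 with Dox, and myeloid progenitors 9.33, 9.82 and 10.10 against 9.77, 9.35 and 9.63, where the groups overlapped (log2 difference -0.17, adjusted P = 0.889).

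All calls among the 10 genes from HE to progenitors were falls, whether RUNX1-ETO was induced or not. From HE to HE2, 2 of 10 were called without Dox (Acvrl1 and Bmp6, 5.07% of all genes) and 2 with Dox (Bmp6 and Tgfb2, 3.10% of all genes), all lower. From HE2 to progenitors, 4 were called without Dox (Bmp2, Bmp6, Tgfb2 and Acvrl1, 5.39% of all genes) and 4 with Dox (Bmp2, Bmp6, Tgfbr2 and Acvrl1, 7.36% of all genes), again all lower. With slide as a block, Bmp6 alone of the latter 4 kept its call. Only Tgfb1 had a higher mean in progenitors than in HE2 in both. The median log2 change of the 10 genes at this step was -1.27 without Dox and -1.28 with Dox, against -0.02 and -0.05 over all genes. From progenitors to myeloid progenitors, 3 were called without Dox (Bmp4, Eng and Smad6, all lower, 13.9% of all genes) and 3 with Dox (Bmp4 and Smad6 lower and Bmp2 higher, 7.37% of all genes). The comparisons with and without Dox used different arrays, and those of consecutive steps shared the arrays of the stage between them.

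**Figure D4:**
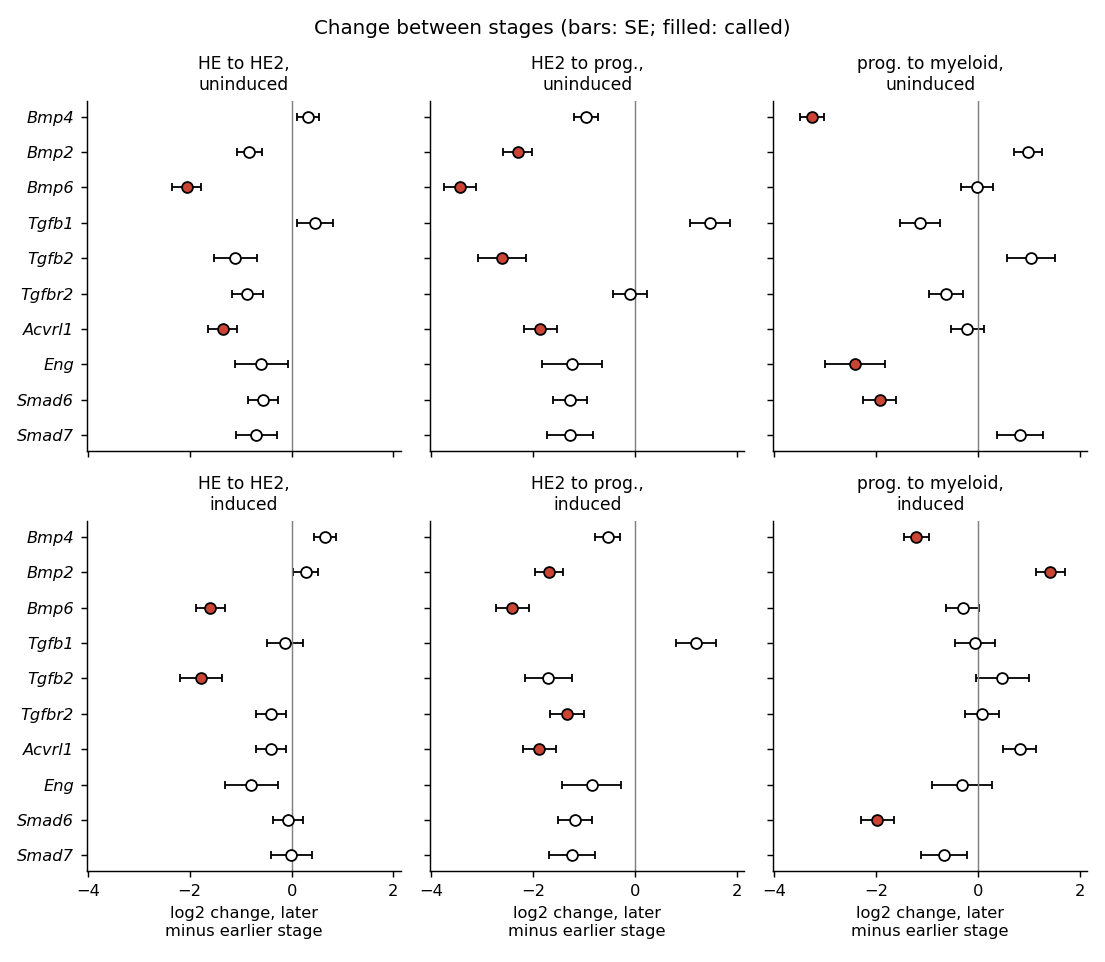
Log2 change between consecutive stages (x axis, later minus earlier stage) of the 10 genes (y axis), without Dox in the upper row and with Dox in the lower row. Points are estimates from limma, bars are 1 standard error, and filled points passed the call, with Bmp6 at -3.43 the largest fall at the step from HE2 to progenitors and Bmp4 at -3.25 the largest at the step to myeloid progenitors.

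Whether Dox acted differently at different stages was tested as a difference between Dox effects. Between myeloid progenitors and HE, 3 of 10 genes were called (4.72% of all genes), Bmp4 (difference 2.81 on the log2 scale, SE 0.31, adjusted P = 2.34e-05), Bmp2 (2.18, SE 0.35, adjusted P = 0.00075) and Acvrl1 (1.96, SE 0.41, adjusted P = 0.00581). For Bmp4 and Bmp2 the Dox effect was below 0 in HE and above 0 in myeloid progenitors. Eng differed by 2.29 with a larger error (SE 0.74, adjusted P = 0.0779) and was not called. A comparison of the Dox effects in myeloid progenitors and progenitors was added after the values were seen, and there 1 gene was called (1.50% of all genes), Bmp4, at 2.05 (SE 0.34, adjusted P = 0.00606). Myeloid progenitors had Dox for 12 h and the sorted stages from day 1 of blast culture, and they lay on different slides except for 1 induced progenitor array, so stage, length of induction and slide cannot be told apart in these differences. Between HE2 and HE, and between progenitors and HE2, limma called none of the 10 genes (1.34% and 0.645% of all genes), with 2 at an unadjusted P under 0.05 in each. Past 2-fold were Bmp2 for HE2 minus HE (1.11, SE 0.35), and Tgfbr2 (-1.24, SE 0.47) and Bmp6 (1.02, SE 0.45) for progenitors minus HE2. The lack of a call thus does not show equal Dox effects.

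The rest of the pathway was read from 64 further genes, of which 53 were bright enough to be tested. With Dox, 3 of these rose and 4 fell in HE, where 4.70% of all genes rose and 2.39% fell. In HE2, 4 rose and 1 fell (5.17% and 2.05% of all genes). In progenitors 3 rose and none fell (3.03% and 0.704% of all genes), and the same counts were found in myeloid progenitors (5.13% and 1.18% of all genes). Their median log2 change was -0.04 (HE), 0.01 (HE2), 0.08 (progenitors) and 0.24 (myeloid progenitors). Fstl1, which encodes a secreted follistatin-like protein, was called higher with Dox at all 4 stages (log2 changes of 1.27, 2.36, 2.08 and 2.27 from HE to myeloid progenitors), with adjusted P of 0.0024 at most. Tgfbr3, which encodes the co-receptor betaglycan, rose in HE2 (1.56), progenitors (2.12) and myeloid progenitors (1.64), and its change in HE was 0.92 and was not called. Ltbp2, of the family of latent TGF-β binding proteins, rose in HE (2.77), HE2 (2.51) and progenitors (2.71), and was -0.56 and not called in myeloid progenitors. In uninduced myeloid progenitors Ltbp2 already read 11.89 to 12.27, against 6.64 to 8.45 on all uninduced arrays of the earlier stages. The difference between its Dox effects in myeloid progenitors and HE was called (-3.33, adjusted P = 0.000553).

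Other members of the pathway were called at 1 stage. Among receptors and SMADs, Acvr1, a type I BMP receptor, rose in HE2 (1.07), Smad1, a BMP-type SMAD, rose in myeloid progenitors (1.77, adjusted P = 6.67e-05), and Smad3, a TGF-β-type SMAD, fell in HE (-1.20, adjusted P = 0.000165). Smad1 read 6.82, 7.44 and 6.84 on uninduced and 8.79, 8.78 and 8.84 on induced myeloid progenitor arrays. Of the extracellular regulators, Bmper (-1.95) and Ltbp1 (-1.46) fell and Ltbp4 (1.59) rose in HE, and of the ligands Gdf6 (-1.10) fell in HE and Inhba, the activin A subunit, fell in HE2 (-1.46). The Id genes, direct targets of BMP-type SMADs, were not called with Dox at any stage. From HE to myeloid progenitors, Id1 differed by 0.37, 1.15 (adjusted P = 0.0332 in HE2), 0.34 and 0.70, and Id3 by -0.59, -0.17, 0.24 and 1.55.

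**Figure D5:**
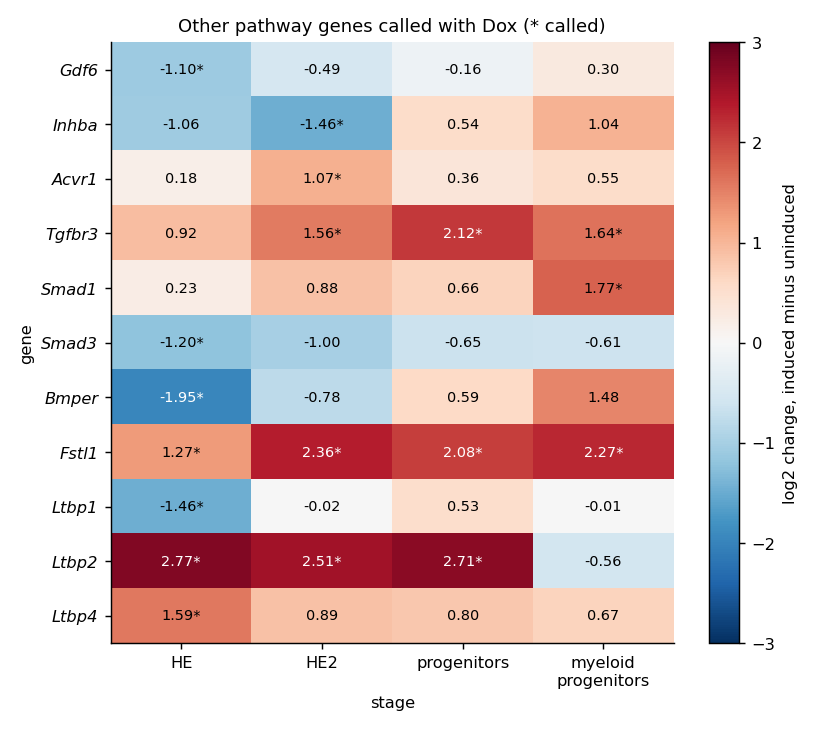
Log2 change with Dox (colour and number, induced minus uninduced) in the 4 stages (x axis) of the 11 other pathway genes (y axis) called at 1 stage or more, with an asterisk on each call. Fstl1 has a call in all 4 stages, and Ltbp2 in the 3 sorted stages.

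Markers of endothelium were also higher with Dox, without overlap, in all stages but HE. The mean log2 intensity of 8 endothelial genes (Pecam1, Cdh5, Tek, Kdr, Tie1, Cldn5, Esam and Emcn) was 9.65 to 10.36 on uninduced and 11.94 to 12.24 on induced myeloid progenitor arrays, 9.83 to 9.99 against 11.64 to 11.70 in progenitors, 11.02 to 12.12 against 12.70 to 13.38 in HE2, and 11.84 to 13.67 against 12.49 to 13.68 in HE. At least 7 of the 8 were well above background on every fitted array. Their induced and uninduced arrays therefore overlapped in HE only, as those of Acvrl1 did. Bmp4 overlapped in HE2 (log2 change -0.36) and in progenitors (0.06), and Eng overlapped in HE and HE2. Within each HE and HE2 group, uninduced or induced, the array with the lowest Eng value also had the lowest endothelial mean. In induced HE2 this was array 3, with 12.14 for Eng and an endothelial mean of 12.70. The endothelial means of uninduced progenitors and uninduced myeloid progenitors also overlapped, whereas Bmp4 (-3.25) and Eng (-2.40, not called with slide as a block) fell at that step. The part of the endothelial markers in the differences of Acvrl1, Eng and Bmp4 was not tested. The mean of 6 haematopoietic genes moved the other way, at 9.90 to 10.33 without Dox and 8.51 to 9.25 with Dox in HE2, and in myeloid progenitors it was 10.96 to 11.62 without Dox and 10.44 to 10.77 with Dox. Other lists moved without overlap in HE2, where Tgfbr2 and Acvrl1 were called, all lower with Dox. These were 6 mesenchymal genes (7.92 to 8.51 without and 6.74 to 7.41 with Dox), 6 cardiac and smooth muscle genes (10.28 to 11.61 and 9.25 to 9.58), 6 epithelial and endodermal genes (7.74 to 8.10 and 6.39 to 6.81), 4 megakaryocyte genes (9.12 to 9.85 and 8.34 to 8.86) and 6 myeloid genes (8.47 to 9.24 and 7.72 to 8.16). The mean of 3 mast cell and basophil genes was higher there, at 8.03 to 8.23 without and 8.43 to 8.78 with Dox. Only 2 of these 3 genes, and 3 of the 6 epithelial and endodermal ones, were bright enough to be tested, so these means include probes of low signal. Of the 6 mesenchymal genes, 2 were higher with Dox in HE2. In myeloid progenitors the mesenchymal mean was 6.10 to 6.81 without and 6.85 to 7.45 with Dox, and the cardiac and smooth muscle mean 7.69 to 8.25 and 8.43 to 8.69. There 5 of the 6 mesenchymal genes were higher with Dox, but the 1 called was lower. On uninduced myeloid progenitor arrays 2 to 5 of the 6 were well above background. The mast cell and basophil mean was also higher there with Dox (7.46 to 7.76 and 8.85 to 9.44). The megakaryocyte mean (12.43 to 12.69 and 11.05 to 11.31), the myeloid mean (9.53 to 10.06 and 9.03 to 9.33) and that of 4 primitive erythroid genes (15.20 to 15.67 and 14.54 to 15.16) were lower with Dox, all without overlap. The primitive erythroid mean was higher in myeloid progenitors than on any array of the sorted stages, while the myeloid mean of uninduced myeloid progenitors overlapped that of uninduced progenitors (10.02 to 10.26). The part of these lists in the results was not tested.

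For the 9 genes whose group means spanned at least 2 log2 units, all but Tgfb1, the genes with the most similar profile over the 8 group means were listed among 3352 others of that span. Acvrl1 was most like Fkbp10 (Pearson's r 0.994), Shroom2 (0.993) and Jcad (0.992). Eng was closest to Nek6 (0.990), Adgra2 (0.981) and Myct1 (0.980), and Bmp4 to Slc39a4 (0.972), Fmnl3 (0.967) and Gsta4 (0.967). Bmp6 was most like Hbegf (0.996), Crmp1 (0.993) and Pdlim3 (0.991), and Bmp2 like Prss12 (0.970), Trim16 (0.962) and Pik3r3 (0.958). The nearest to Tgfb2 were Sh3tc2 (0.980), Etv4 (0.977) and Gdpd1 (0.971), and to Tgfbr2 Aplp1 (0.990), Disp2 (0.979) and Klhl5 (0.978). Smad6 was most like Nectin3 (0.993), Gata3 (0.993) and Trap1a (0.992), and Smad7 like Kcna6 (0.972), Eml1 (0.970) and Ly6h (0.964). The 8 points share arrays and normalization, and with so many candidates high values arise readily, so these are descriptions.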

How the data were processed

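RNA of 23 samples had been hybridised to Agilent 1-colour mouse arrays. The authors deposited scanner intensity values (median spot and background signals, Feature Extraction, 10.7.1.1 per the submitters' processing notes and 10.7.3.1 per the file headers) and log2 values of the same arrays. The deposited log2 columns, used as an alternative, held numbers 2 and 3 of induced HE, HE2 and myeloid progenitors exchanged against the scanner files, which leaves group means as they are. Here, intensities were background-corrected (normexp, offset 16) and quantile normalized with limma (3.58.1, R 4.3.3). The median signal was used where the mean had been planned. Control spots (3671) and outlier-flagged spots were left out, and spots of 1 probe averaged. Probes were named through RefSeq identifiers (26582 of 55681 had a symbol), the probe of highest mean was taken per gene, and genes below a log2 intensity of 6.5 on every array were not tested, which left 15202. limma was fitted to 8 groups (22 arrays, 14 residual degrees of freedom), with Benjamini-Hochberg adjustment. The additional uninduced progenitor array was normalized but not fitted. The number of arrays limits the precision, and where labels do not show separate cultures P measures only the spread between these samples.

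Named were the 10 genes, called genes of the pathway lists, the targeted gene, and the 3 genes most alike to each of the 10. A gene of the pathway lists is not reported here. Members and lists were chosen with earlier results of these data known. Alternatives covered background correction, scaling, source of values, filters, probes, thresholds, slide, scan day and replicate blocks, samples fitted and leaving out each array. By the scanner files' numbers, same-numbered arrays deviated together in every pair for HE to HE2 without Dox alone (r 0.394 to 0.795), and by the deposited columns' numbers also for Dox in HE2 (0.360 to 0.606) and in myeloid progenitors (0.126 to 0.261). Which numbering is right is not known. Promoter sequences are from RefSeq (GRCm38.p6). Calculations were tested on simulated data.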

Additional observations from a re-analysis of the deposited data

Results flagged for a closer look

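The response to Dox differed between stages, by a test of the difference itself, for 3 genes between myeloid progenitors and HE. On the log2 scale the difference (myeloid progenitors minus HE) was 2.81 for Bmp4, 2.18 for Bmp2 and 1.96 for Acvrl1. Bmp4 also differed between myeloid progenitors and progenitors, by 2.05, in a comparison chosen after the values were seen. No cause of these differences was tested.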

How the results depend on the processing

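Over all comparisons and settings, 989 values of single genes kept their direction and their side of the call, 63 lost the call, 71 gained it and none changed direction; 13 of the 28 calls were kept under every setting run. The 3 Dox calls in myeloid progenitors were kept throughout. With a 2-fold change alone, the calls among the 10 genes were 4 (Dox in HE2), 4 (Dox in progenitors), 8 and 8 (HE2 to progenitors without and with Dox) and 5 (progenitors to myeloid progenitors without Dox), and for differences of the Dox response 1 (HE2 minus HE), 2 (progenitors minus HE2), 5 (myeloid progenitors minus HE) and 5 (myeloid progenitors minus progenitors). A 2-fold change alone also added Smad6 (Dox in myeloid progenitors) and Tgfb2 (HE to HE2 without Dox). With adjusted P of 0.05 the calls were 4 (Dox in HE2), 1 (Dox in progenitors) and 7 (HE2 to progenitors with Dox). This setting also added Smad6 for Dox in myeloid progenitors (adjusted P = 0.0169). Smad6 (0.0196) and Tgfb1 (0.0222) were added from HE2 to progenitors without Dox, and Tgfb1 (0.0330) from progenitors to myeloid progenitors without Dox. With only the groups compared in the fit the calls were 0 (Dox in HE), 1 (Dox in HE2), 1 (HE2 to progenitors with Dox) and 3 (myeloid progenitors minus progenitors). Percentile scaling and the mean of all probes each gave 1 for Dox in HE2, and the latter 0 for myeloid progenitors minus progenitors. Slide as a block gave 1 for HE2 to progenitors with Dox and 1 for progenitors to myeloid progenitors without Dox. Scan day as a block gave 1 (Dox in HE2), 2 (Dox in progenitors), and 1 and 1 (progenitors to myeloid progenitors without and with Dox). Without slide 3 the counts were 1 (Dox in HE2), 1 (Dox in progenitors), 1 (HE to HE2 without Dox) and 1 (HE2 to progenitors with Dox). The additional uninduced progenitor array gave 2 for Dox in progenitors.

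With the scanner files' replicate numbers as a block, the count was 1 for Dox in HE2 (Acvrl1 lost) and 1 for the difference of HE2 and HE (Bmp2 gained). With the numbers of the deposited columns, by which the HE2 arrays pair, Dox in HE2 kept 2 calls, Acvrl1 included, and the difference of HE2 and HE again had 1. For HE to HE2 without Dox, where both numberings pair the arrays, the block changed no call. Dox in myeloid progenitors had 4 calls under either numbering, with Smad6 gained.

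Leaving out 1 array at a time gave 1 to 2 calls for Dox in HE (2 without uninduced HE array 3), 0 to 2 in HE2 (0 without induced array 3 or uninduced array 1), 0 to 2 in progenitors (2 without induced array 2) and 3 to 4 in myeloid progenitors. It gave 1 to 4 from HE to HE2 without Dox (4 without uninduced HE array 1) and 1 with Dox, where Tgfb2 was lost without any 1 of the 6 arrays. It gave 4 to 5 and 3 to 6 from HE2 to progenitors, and 2 to 3 and 1 to 3 from progenitors to myeloid progenitors, without and with Dox (1 without induced progenitor array 1). For the differences it gave 0 to 1 (HE2 minus HE, 1 without induced HE2 array 1), 0 (progenitors minus HE2), 3 to 4 (myeloid progenitors minus HE) and 1 (myeloid progenitors minus progenitors). Where this left 1 progenitor array, it was assumed to vary like the other groups. The cause was not tested for any of these changes.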

Other observations

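An additional array of uninduced progenitors, on the slide of the myeloid progenitors and outside all comparisons above, gave log2 intensities of 12.06 for Bmp4, 10.05 for Bmp2, 12.97 for Tgfb1 and 7.56 for Tgfb2. Bmp6 read 5.36 and was not well above background. The receptors read 11.72 (Tgfbr2), 7.82 (Acvrl1) and 11.38 (Eng), and the inhibitory SMADs 11.21 (Smad6) and 9.25 (Smad7).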
